A study of Mus musculus with 4 samples.

Results

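Mature miR-205 and the miR-200 family were examined in 4 mouse cell lines. The members were all mouse entries of the array named miR-205, miR-200a, miR-200b, miR-200c, miR-141 or miR-429, with either arm of the hairpin. This gave 12 miRNAs (2 arms of miR-205 and 10 of the miR-200 family) of 1023 mouse miRNAs on the array, measured by 32 probes with 480 spots per array. The lines were NSC, neural stem cells, and NSCL61, glioma-initiating cells derived from neural stem cells, together with OPC, oligodendrocyte precursor cells, and OPCL61, glioma-initiating cells derived from those precursors. Each line was measured on 1 array, so no difference between lines could be tested against the spread between cultures. Errors given here are SDs over replicate spots of 1 array unless named otherwise. The labels give no genotype, transgene, treatment, age or passage for any line. Lines named NSCL61 and OPCL61 are known from other work as p53-deficient precursors that overexpress an activated HRas, which the labels used here do not state.

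MicroRNAs are short RNAs that lower the output of messenger RNAs whose 3′ ends pair with their seed, the bases near the 5′ end. The miR-200 family and miR-205 are best known from epithelia. There they repress the transcription factors Zeb1 and Zeb2, which switch off E-cadherin and drive epithelial-mesenchymal transition (EMT), and Zeb1 and Zeb2 in turn repress the miR-200 genes. miR-205 is abundant in stratified epithelia such as epidermis, where it is a basal cell miRNA. Neural stem cells and oligodendrocyte precursors are not epithelia of this kind.

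The mature sequences are shown because the members differ in the seed, while the probes of the array read mainly the bases after it. They were taken from RefSeq on GRCm38.p6, where all 12 members were found, and capitals mark the seed, bases 2 to 8.
miR-205-5p: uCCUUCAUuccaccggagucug
miR-205-3p: gAUUUCAGuggagugaagcuca
miR-200b-3p: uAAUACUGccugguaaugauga
miR-200c-3p: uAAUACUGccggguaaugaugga
miR-429-3p: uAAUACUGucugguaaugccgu
miR-200a-3p: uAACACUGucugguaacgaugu
miR-141-3p: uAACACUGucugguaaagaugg
The 3p arms of the miR-200 family, the arms best known for acting on Zeb1 and Zeb2, carried 2 seeds. One was shared by miR-200b-3p, miR-200c-3p and miR-429-3p and the other by miR-200a-3p and miR-141-3p. From the first seed to the second the change was U4C, counted from the 5′ end of the miRNA. No other miRNA among the 794 of the array that matched RefSeq by name carried the seed of miR-205-5p.

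The genes of these miRNAs lie in 3 places. Mir205 lies at chr1:193507463-193507530 on the minus strand (GRCm38.p6), within the long noncoding RNA gene Mir205hg. Mir200b, Mir200a and Mir429 lie together on the minus strand of chromosome 4 within 1846 bases, inside the long noncoding RNA gene Gm13648. Mir200c and Mir141 lie on the minus strand of chromosome 6 within 477 bases. The hairpin of Mir205 shares its location with no other member.

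mmu-miR-205-5p was read by 2 probes, each complementary to the 3′ end of the miRNA. The shorter covers bases 8 to 22 and the longer bases 7 to 22, and the capital marks the base by which the longer exceeds the shorter.
15-base probe (A_54_P1175): cagactccggtggaa
16-base probe (A_54_P1176): cagactccggtggaaT
Both lie almost wholly outside the seed. All 32 probes of the members matched their own miRNA in full, and each matched only 1 mature mouse miRNA of the RefSeq table. Likeness over the 16 bases was compared for the 794 array miRNAs that matched RefSeq by name, and not for the others. Among them the most like miR-205-5p was miR-3110-3p, with 12 bases matching, and it was not well above background on any array. The 2 with 11 matching bases, miR-653-3p and miR-760-5p, were also not well above background on any array.

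miR-205-5p was well above background in NSCL61 and in none of the other lines. A miRNA is called so when, for any of its probes, at least 50% of the spots carry the scanner software's flag for a signal well above background. In NSCL61, the 20 spots of the 15-base probe ranged from 147.9 to 179.0 intensity units with a median of 161.9, before any scaling. Their mean was 161.9 ± 8.63 (SD over spots). The 17 spots of the 16-base probe that were not flagged as outliers ranged from 283.1 to 316.6 units with a median of 299.0, and their mean was 298.6 ± 8.66. All 37 of these spots were well above background. The SD was 5.33% of the mean for the 15-base probe and 2.90% for the 16-base probe, and this is technical error within 1 array.

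The spots of both probes were scattered over the array. Those of the 15-base probe lay between rows 35 and 367 of 384, and those of the 16-base probe between rows 48 and 377. Spots in the upper part of the array averaged 160.4 units for the 15-base probe, against 163.2 in the lower part. The 16-base probe averaged 296.8 and 300.2 units in the same areas, so that for either probe the areas differed by less than the SD over spots.

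On the other arrays both probes of miR-205-5p read close to 0. In NSC the 38 spots used ranged from −6.27 to 6.27 units, with probe means of −0.89 and −0.27. In OPC the 38 spots ranged from −3.66 to 4.08 units, with probe means of −0.044 and −0.78. In OPCL61 the 39 spots ranged from −4.78 to 8.89 units, with probe means of −0.45 and 1.71. None of these spots was well above background, and no spot used on any of these arrays reached the lowest spot in NSCL61. Values below 0 arise because the background was subtracted. The software's own total signal for miR-205-5p was 175.0 units in NSCL61, with an error of 13.05, and its placeholder for an undetected miRNA, 0.1, on each of the other arrays.

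**Figure D1:**
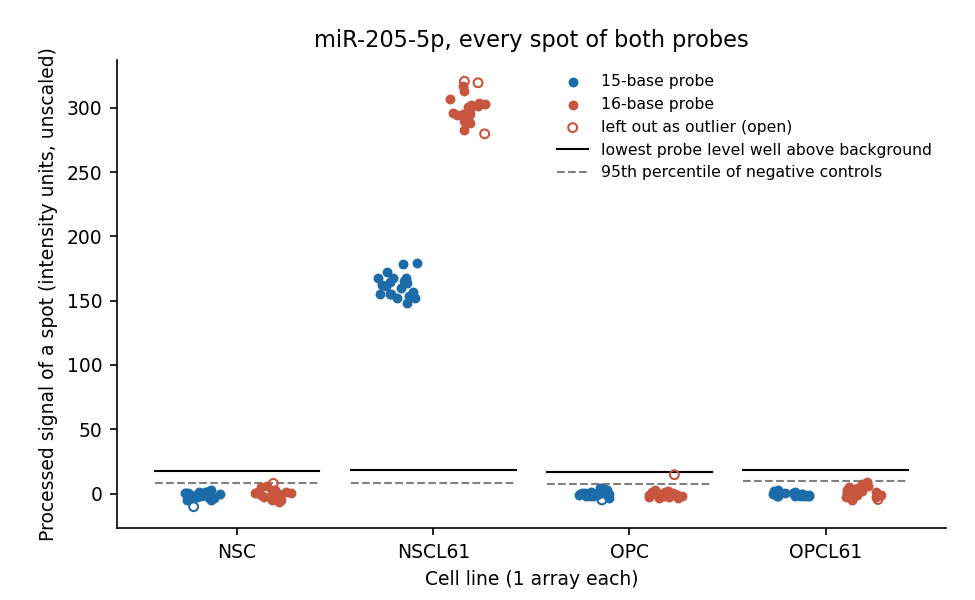
Processed signal of every spot of the 15-base (blue) and 16-base (red) probe of miR-205-5p in each line, in unscaled intensity units. Open points were left out as outliers, solid lines mark the lowest probe level well above background (17.0 to 18.5 units) and dashed lines the 95th percentile of the negative controls. The NSCL61 spots used lie between 147.9 and 316.6 units and those used in the other lines between −6.27 and 8.89.

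The other arm of the hairpin, miR-205-3p, was not well above background in any line. Its probe means were −4.09 and −4.34 units in NSC, −3.08 and −2.45 in NSCL61, −4.30 and −1.67 in OPC, and −2.35 and −3.24 in OPCL61. The highest single spot used was at 2.27 units in NSCL61 and at 3.11 over all lines. The NSCL61 array thus detected 1 arm of miR-205 and not the other. Probes differ in how they bind, so the signals of the arms were not set against each other.

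None of the 10 arms of the miR-200 family was well above background in any line. None of their spots carried the flag, of 390 used on the NSC array, 391 on the NSCL61 array, 386 on the OPC array and 390 on the OPCL61 array. Their probe means ran from −4.30 to 1.28 units in NSC, from −3.83 to 0.93 in NSCL61, from −3.46 to 3.25 in OPC and from −5.56 to 2.87 in OPCL61. The ranges of the 4 lines overlap. None of the 30 probes of the 11 undetected members reached the 95th percentile of the negative control spots, which was 8.36, 8.20, 7.45 and 9.78 units in NSC, NSCL61, OPC and OPCL61. Over the 1000 negative controls the median was 3.02, 3.29, 2.53 and 3.03 units in the same order. The median over all mouse probes not well above background was lower, at −0.55, −0.23, −0.49 and −0.41 units. A mean below the control median is thus common to most undetected probes.

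The software's weaker flag, for spots positive and significantly above local background, was set on 2.56% of miR-200 family spots on the NSC array, 5.88% on the NSCL61 array, 6.99% on the OPC array and 7.44% on the OPCL61 array. The same flag was set on 45.7%, 48.2%, 40.7% and 41.8% of the negative controls. Among all mouse probes not well above background, the median share of such spots per probe was 5.88%, 10%, 7.14% and 10%. Pooled over its arms, the share of the family lay below both on every array. The pooled share hides 1 arm, miR-200a-5p, with 13 of the flagged spots in OPC and 14 in OPCL61.

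The 5 arms with the 2 seeds best known for repressing Zeb1 and Zeb2 gave the following probe means, in unscaled units, each arm being read by 2 probes. miR-200b-3p read −2.18 and −1.53 in NSC, −3.32 and −1.05 in NSCL61, −3.10 and −0.99 in OPC, and −2.65 and −1.39 in OPCL61. miR-200c-3p read −2.62 and −0.95 in NSC, −1.22 and −0.26 in NSCL61, −2.28 and −2.003 in OPC, and −2.22 and −1.56 in OPCL61. For miR-429-3p the values were −2.08 and 0.66 in NSC, 0.098 and 0.82 in NSCL61, −1.61 and −0.16 in OPC, and −0.71 and −0.42 in OPCL61. These 3 arms share a seed, and none was above the median of the negative controls on any array.

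The arms with the other seed also read close to 0. miR-200a-3p gave −1.54 and −0.93 units in NSC, −1.36 and −0.37 in NSCL61, −1.61 and 0.081 in OPC, and −1.48 and −1.14 in OPCL61. miR-141-3p gave −2.21 and 0.21 units in NSC, −2.56 and 0.71 in NSCL61, −2.65 and −0.82 in OPC, and −1.71 and −0.97 in OPCL61. Both lay below the median of the negative controls on every array, as no value here reached 1 unit.

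miR-200a-5p, the less studied arm of the miR-200a hairpin, read slightly higher in the oligodendrocyte lineage. Its 3 probes averaged between 1.33 and 3.25 units in OPC and between 2.35 and 2.87 in OPCL61, against −4.12 to −0.66 in NSC and −3.29 to 0.93 in NSCL61. The weaker flag was set on 32.5% of its spots in OPC and 35% in OPCL61, and on 2.56% and 2.70% in NSC and NSCL61. The negative controls carried this flag more often, at 40.7% in OPC and 41.8% in OPCL61. Its highest probe mean in OPC lay above that array's negative control median of 2.53 units. In OPCL61 all 3 of its probe means lay below the control median of 3.03 units. Among all mouse probes not well above background, its highest probe mean exceeded 86.4% in OPC and 82.3% in OPCL61. In NSC and NSCL61 it exceeded 48.1% and 66.8%. All of these means lie below the 95th percentile of the negative controls on their array, so no fold is given, and 0 spots of it were well above background. The other 5p arms, miR-141-5p, miR-200b-5p, miR-200c-5p and miR-429-5p, had probe means between −5.56 and 1.28 units over the 4 lines. OPC and OPCL61 could not be compared for any member.

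**Figure D2:**
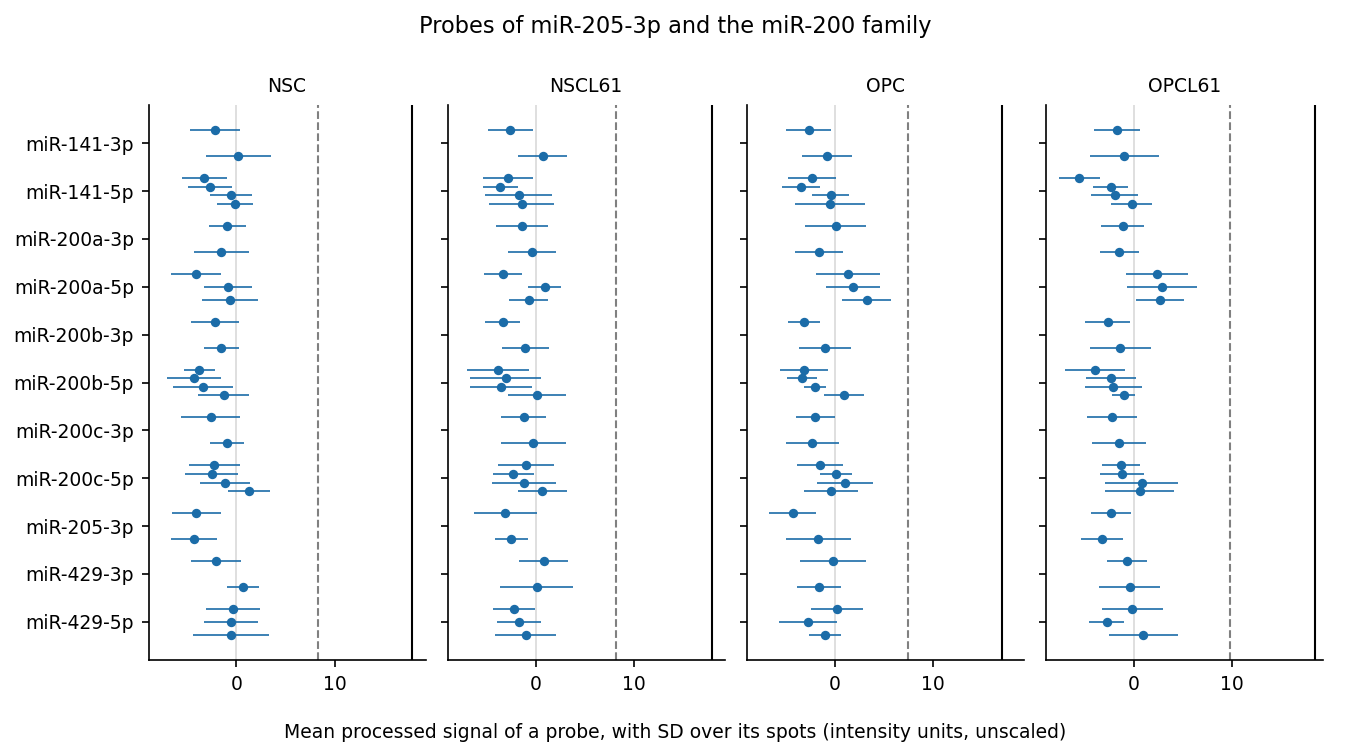
Mean processed signal of each of the 30 probes of miR-205-3p and the miR-200 family, by line, with bars for the SD over the spots of a probe (unscaled intensity units). The dashed line is the 95th percentile of the negative controls and the solid line the lowest probe level well above background. All probes lie left of both lines on all 4 arrays.

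Set against the whole array, the members were detected as follows. The NSC array called 16.6% of the 1023 mouse miRNAs well above background, the NSCL61 array 22.3%, the OPC array 13.6% and the OPCL61 array 20.1%. Of the 12 members, 0, 1, 0 and 0 were. Of all mouse miRNAs, 3.32%, or 34, were well above background in NSCL61 alone, and miR-205-5p was 1 of them. In RNA from a whole culture, fewer cells with a miRNA and less of it per cell cannot be told apart.

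In NSCL61 the level of miR-205-5p exceeded that in NSC by at least 4.30-fold, that in OPC by at least 2.62-fold and that in OPCL61 by at least 7.75-fold. These are lower bounds and not estimates of the ratio. Signals were first scaled between arrays on the probes detected on all 4 of them. The level of the 16-base probe in NSCL61 was then divided by the lowest level at which any probe was well above background in the other line. On the log2 scale the bounds were 2.11, 1.39 and 2.95. The level of the 16-base probe in NSCL61 had a standard error over spots of 0.010. That error leaves out the floor, the scaling and the spread between cultures. By the 15-base probe alone the bounds were 2.33-fold over NSC, 1.42-fold over OPC and 4.20-fold over OPCL61. The 3 comparisons share the NSCL61 array and are not independent.

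The bounds rest on the scaling and on the background correction. The scaling raised the other arrays relative to NSCL61 by 3.88-fold for NSC, 6.68-fold for OPC and 2.09-fold for OPCL61. Without it the bounds were 16.7-fold, 17.5-fold and 16.2-fold. In another setting the scaling was kept and the normexp background model, with an added offset of 50, replaced the software's background subtraction. The bounds then fell to 1.39-fold over NSC and 2.33-fold over OPCL61, and no fold over OPC was left. The parts of the model and of the offset in this fall were not tested. With the mean of both probes the bound over OPC was 1.93-fold.

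**Figure D3:**
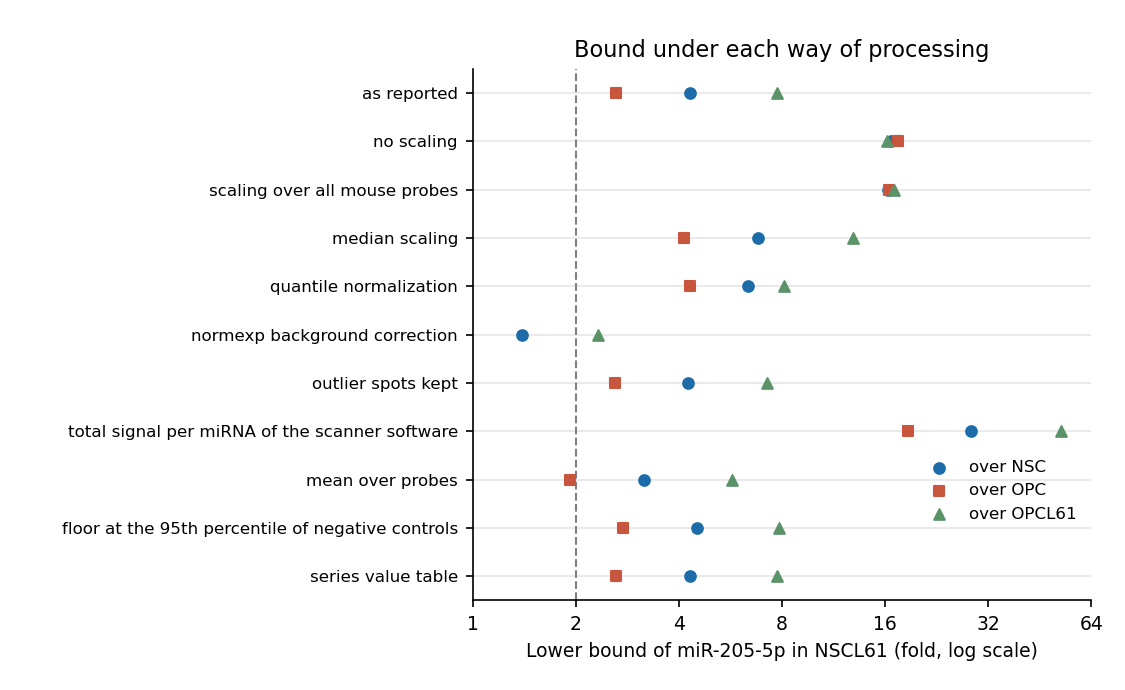
Lower bound of miR-205-5p in NSCL61 over NSC (circles), OPC (squares) and OPCL61 (triangles), as a fold on a log axis, under each way of processing. The dashed line is 2-fold. The bound as reported is 4.30 over NSC, 2.62 over OPC and 7.75 over OPCL61, and the total signal of the scanner software gives the highest values (28.6, 18.7 and 52.4), while normexp gives no fold over OPC.

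As background to these bounds, 11.8% of the 245 miRNAs well above background in NSCL61 or NSC were higher by at least 2-fold in NSCL61. The share was 10.1% of 238 against OPC and 12.1% of 256 against OPCL61. Of the 75 miRNAs detected in NSCL61 and not in NSC, 15 had a bound of at least 2-fold, and 8 had a larger bound than miR-205-5p. Against OPC, 8 of 99 had such a bound and 6 a larger one. Against OPCL61, 6 of 50 had such a bound and none exceeded that of miR-205-5p.

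Among the 34 miRNAs detected in NSCL61 alone, miR-205-5p had the highest bounds over each of the other lines. It was the only one of the 34 with a bound of at least 2-fold over all 3 lines, and also the only one over NSC and over OPC, while 5 of the 34 passed 2-fold over OPCL61. The 5 others with bounds over NSC nearest to it, over 4 arrays, were miR-199a-5p, miR-214-3p, miR-467a-3p, miR-28-5p and miR-29b-1-5p. miR-199a-5p, abundant in fibroblasts and smooth muscle, was at least 1.92-fold higher than in NSC, 1.17-fold than in OPC and 3.47-fold than in OPCL61. miR-214-3p, which is made from the same transcript as miR-199a-5p, was at least 1.21-fold higher than in NSC and 2.18-fold than in OPCL61. For miR-467a-3p, of a repeat-rich rodent miRNA group, the bounds over NSC and OPCL61 were 1.18-fold and 2.11-fold. They were 1.12-fold and 2.01-fold for miR-28-5p, and 1.05-fold and 1.89-fold for miR-29b-1-5p. None of the last 4 had a bound above 1 over OPC.

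Markers of other cell types differed among the lines in more than 1 way. Of 9 miRNAs that mark fibroblasts, pericytes and smooth muscle, 4 were well above background in NSCL61 (both arms of miR-199a, miR-199b-5p and miR-214-3p), with a summed total signal of 431.1 units. The numbers were 0 in NSC, 1 in OPC (5.30 units) and 2 in OPCL61 (20.4 units). Over all mouse miRNAs the detected shares were 22.3% for NSCL61, 16.6% for NSC, 13.6% for OPC and 20.1% for OPCL61. Summed signals here are unscaled, so they also carry the differences in overall signal between the arrays. miR-143 and miR-145, which define smooth muscle best, were not well above background in any line. The endothelial miR-126-3p was detected in NSCL61 alone, at 17.3 units, and miR-126-5p in no line. After scaling, miR-126-3p lay below the lowest level well above background on each other array, so it gave no fold over any line. Of 9 markers of blood cells and microglia, miR-150-3p alone was detected, in OPC (8.85 units) and OPCL61 (163.1 units) and not in NSC or NSCL61. The part of these markers in the signal of miR-205-5p was not tested. A list of neural miRNAs held 12 arms of miR-9, miR-124, miR-128, miR-219 and miR-338. Of these, 6 were detected in NSC (821.3 units), 4 in NSCL61 (130.3 units) and 3 in OPC (242.8 units). In OPCL61 0 were, so no marker on this list was measured there.

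Other epithelial miRNAs fell into those that were detected in NSCL61 and those that were not. None of the arms of miR-203, miR-192, miR-194, miR-215, miR-375 and miR-184 was well above background in any line, whereas arms of miR-31, miR-182, miR-183 and miR-96 were. miR-203 is a miRNA of differentiating epidermis, miR-192, miR-194 and miR-215 are intestinal and renal, and miR-375 is found in endocrine and gut epithelium.

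A list of 20 other epithelial miRNAs, which holds all arms of these 10 miRNAs, had 6 that were detected in NSCL61 and 5 in OPCL61, and 0 in NSC and in OPC. Over NSC, 5 of the 6 passed 2-fold in NSCL61, against 11.8% of all measured miRNAs. As none of the list was detected in NSC, none could be called lower, whereas 38.8% of all measured miRNAs were lower. Of the 75 miRNAs detected in NSCL61 and not in NSC, 15 passed 2-fold. miR-31-5p, found in epidermis and in many carcinomas, was at least 22.5-fold higher and miR-31-3p at least 5.65-fold. The cluster of miR-183, miR-96 and miR-182, known from sensory organs, gave bounds over NSC of at least 11.6-fold for miR-96-5p, 4.53-fold for miR-183-5p and 3.65-fold for miR-182-5p. In OPCL61, 1 of 5 passed 2-fold over OPC, miR-31-5p with at least 4.43-fold, and again none could be called lower. Over all 214 miRNAs measured in that pair, 14.5% were higher and 20.6% lower. The calls of these listed miRNAs were all also made under the 4 other scalings. The 5 miRNAs named for NSCL61 were all well above background in OPCL61 as well, where miR-205-5p was not.

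The list's median change in NSCL61 over NSC was 2.34 on the log2 scale, made wholly of bounds, against −0.13 over all 245 miRNAs, where bounds that gave no fold count as 0. In OPCL61 over OPC it was 0.14, also wholly from bounds, against 0 over all 214. Neither list median could therefore fall below 0. Between the glioma-initiating lines, miR-182-5p was 6.03-fold, miR-96-5p 4.80-fold, miR-183-5p 3.62-fold, miR-31-3p 3.13-fold and miR-31-5p 3.09-fold higher in NSCL61 than in OPCL61. These 5 were measured on both arrays, and miR-183-3p, which was not, had a bound of 1.06-fold.

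miRNAs linked to promoting EMT moved both ways. Of 16 on the array, 11 were well above background in NSCL61 or NSC, 4 were higher and 2 lower in NSCL61, where the shares over all 245 measured miRNAs were 11.8% and 38.8%. The higher ones were miR-21-5p, which represses the tumour suppressor Pdcd4, at 14.3-fold, miR-221-3p at least 14.1-fold, miR-222-3p at least 2.92-fold and miR-10b-5p at least 2.71-fold. The lower ones were both arms of miR-9, a neural progenitor miRNA that targets E-cadherin in breast carcinoma cells. The list took any arm of a named miRNA, so the link to EMT is not given for each arm. miR-9-3p was 65.8-fold and miR-9-5p 20.7-fold lower. These 6 calls held under all 4 other scalings.

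In the oligodendrocyte lineage 9 of the 16 were measured, 2 higher and 2 lower in OPCL61, against 14.5% and 20.6% of all 214. miR-21-5p was 6.65-fold and miR-221-3p 2.19-fold higher, and the fall of miR-9-3p was at least 64.3-fold and that of miR-9-5p at least 25.2-fold. The list medians were 0 in NSCL61 over NSC and −0.02 in OPCL61 over OPC. Of the members that were not called, miR-103-3p and miR-107-3p were measured in all 4 lines and differed by at most 1.34-fold within either lineage, and miR-155-5p differed by 1.02-fold between NSCL61 and NSC.

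Of the miRNAs linked to opposing EMT, other than the members, none was called higher after the scaling used here, and the direction of several depended on it. Of 19 on the array, 6 were measured in NSCL61 or NSC, with 0 higher and 3 lower, in a comparison where 38.8% of all 245 were lower and 11.8% higher. miR-101a-3p and miR-101b-3p were detected in NSCL61 and not in NSC, but their bounds gave no fold. miR-34b-5p was 3.20-fold, miR-34c-5p 2.51-fold and miR-138-5p 2.18-fold lower. After this scaling the 153 miRNAs measured on both arrays had a median log2 change of −1.03, against −1.68, −1.33 and −1.13 for these 3. Of these, miR-34b-5p was still at least 2-fold lower under 1 of 4 other scalings, and miR-34c-5p and miR-138-5p under none. All 3 turned to higher in NSCL61 under 2 of the 4, without scaling and with scaling over all mouse probes. miR-34b and miR-34c are targets of p53 that act on Snail and Met, and miR-138 acts on Zeb2 and vimentin in carcinoma cells.

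In OPCL61, 7 were measured against OPC, with 0 higher and 3 lower, namely miR-204-5p (at least 13.9-fold), miR-138-1-3p (4.06-fold) and miR-34a-5p (2.41-fold). miR-101b-3p, miR-34b-5p and miR-34c-5p were detected in OPCL61 and not in OPC, but their bounds gave no fold. Over all 214 miRNAs of that pair, 14.5% were higher and 20.6% lower. miR-204-5p is known from the retinal pigment epithelium and choroid plexus. miR-138-5p was not well above background in OPC or OPCL61, so only the 3p arm of miR-138 was read in this pair. The fall of miR-204-5p passed 2-fold under all 4 other scalings, and those of miR-138-1-3p and miR-34a-5p under 2. The direction of miR-34a-5p turned under the other 2. miR-30a-5p was measured in all 4 lines, 1.07-fold lower in NSCL61 than in NSC and 1.84-fold higher in OPCL61 than in OPC, both under 2-fold. Medians on the log2 scale were −0.61 in NSCL61 over NSC and 0 in OPCL61 over OPC.

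**Figure D4:**
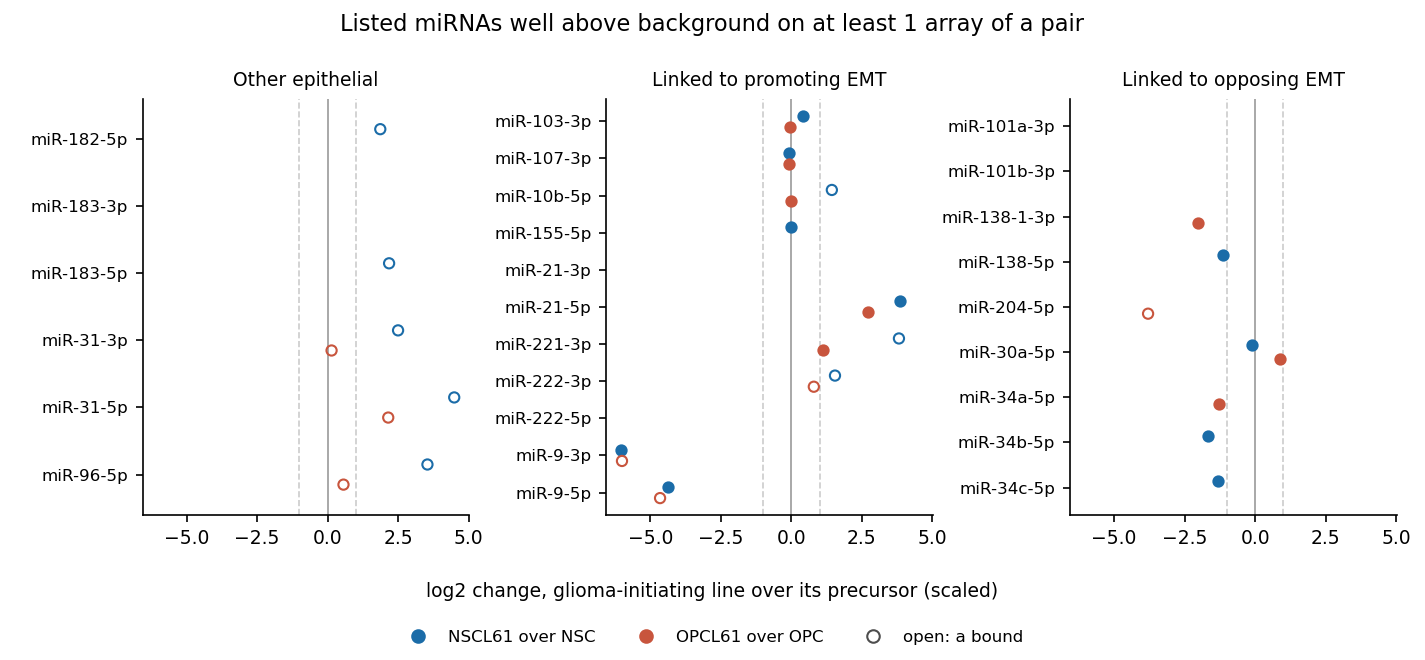
log2 change of the listed epithelial and EMT-linked miRNAs in NSCL61 over NSC (blue) and OPCL61 over OPC (red), after scaling. Filled points were measured on both arrays of a pair and open points are bounds, dashed lines mark 2-fold, and a miRNA with no point in a colour was not detected on that pair or its bound gave no fold. The epithelial points are all bounds, which are drawn only where they lie to the right of 0. Both arms of miR-9 lie between −6.04 and −4.37 in both lineages.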

How the data were processed

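Per the labels' protocols, 100 ng of total RNA from each line was hybridised to a 1-colour (Cy3) Agilent mouse miRNA array. Per the submitters' processing notes, the scanner software was Agilent Feature Extraction (10.7.3.1). The deposited intensity of a spot is, per the file headers, background-subtracted and spatially detrended, with no normalization between arrays. The deposited series table held the same intensity values (largest difference 0).

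Spots flagged as outliers were left out (1842 to 2365 of 40920 mouse spots per array). Signals below the lowest spot well above background (16.3 to 18.2 units) were set to it, and log2 values were averaged per probe. Arrays were scaled by the 75th percentile of the 182 probes that were detected on every array. A miRNA's level was that of its brightest probe. Changes of at least 2-fold were counted. With 1 array per line there was no test, and the number of arrays limits precision. The rule for naming took all members, listed miRNAs detected on at least 1 array, and the 5 miRNAs with the pattern most like that of miR-205-5p. Members and lists were chosen with earlier results of these data known. Not every listed miRNA taken by the rule is given with a value. The counting of calls was tested on simulated data. Alternatives covered scaling, detection, background correction with limma 3.58.1 (R 4.3.3, normexp, offset 50), outlier spots and the summary per miRNA. Python 3.11.15, numpy 2.4.6 and pandas 2.3.3 were used.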

Additional observations from a re-analysis of the deposited data

Results flagged for a closer look

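Some spots left out as outliers read above the 95th percentile of the negative controls, for members that were otherwise at background on that array. For miR-205-5p, 1 left-out spot of the 16-base probe (A_54_P1176) read 14.7 units in OPC, where that percentile was 7.45. For miR-205-3p, 1 left-out spot of probe A_54_P00005467 read 31.7 units in NSC. For miR-200a-5p, 1 left-out spot of probe A_54_P3410 read 50.6 units in NSCL61. All of these lay within the range of the negative controls, whose highest spot read 45.2 units in NSC, 99.7 in NSCL61 and 119.4 in OPC. On the array of its left-out spot, none of the used spots of each probe was well above background. Groups of 1 array allowed no check for arrays that stand apart.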

How the results depend on the processing

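The numbers of members detected in NSC, NSCL61, OPC and OPCL61 (0, 1, 0 and 0) were the same under all 5 alternative rules for detection. The bound of miR-205-5p over OPC gave no fold with normexp, since it fell under 1. Over NSC, OPC and OPCL61 in turn, the bounds in NSCL61 were 16.7, 17.5 and 16.2 without scaling, 16.4, 16.5 and 17.0 with scaling over all mouse probes, 6.81, 4.14 and 12.9 with median scaling, and 6.35, 4.30 and 8.10 with quantile normalization. They were 28.6, 18.7 and 52.4 by the software's total signal, and 3.17, 1.93 and 5.71 by the mean over probes. With normexp the bounds over NSC and OPCL61 were 1.39 and 2.33. A floor at the 95th percentile of negative controls gave 4.53 over NSC and 2.74 over OPC, and keeping outlier spots gave 7.24 over OPCL61.

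The counts of miRNAs higher by at least 2-fold in NSCL61 than in NSC, OPC and OPCL61 (29, 24 and 31 as reported) were 120, 157 and 101 without scaling, 118, 151 and 104 with scaling over all mouse probes, 49, 37 and 71 with median scaling, and 45, 37 and 49 with quantile normalization. They were 14, 14 and 14 with normexp and 74, 78 and 83 by total signal.

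In the lists, the settings without scaling and with scaling over all mouse probes gave 4 epithelial miRNAs higher in OPCL61 than OPC, 8 EMT-promoting miRNAs higher in NSCL61 and 6 in OPCL61, and 2 EMT-opposing miRNAs higher in NSCL61. In OPCL61 2 of the EMT-opposing miRNAs were higher without scaling and 1 with scaling over all probes, and 1 was lower under either. The 3 EMT-opposing miRNAs lower in NSCL61 became 1 with median scaling, and 0 under quantile normalization, all-probe scaling or no scaling. The cause of these differences was not tested. No paired analysis was possible because each line has 1 array and no comparison was tested. What limits all of these values is the single array per line and the signal over background, since a member below background has only a bound.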
